A study of Arabidopsis thaliana with 17 samples.

Results

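The psad1-1 mutant was compared with its wild type Col-0 in 5 of the 17 arrays of the series, 2 of psad1-1 (A and B) and 3 of Col-0 (A, B and C). Samples were chosen by their titles alone. Each array held 5 µg of total RNA from a pool of 10 plants, taken from rosette leaves at 4 weeks of age, and was an Affymetrix ATH1 array read as 1 signal per probe set. The design text calls the pools biological replicates, while the light, growth conditions and hour of harvest are not known from the labels. Where other genotypes are used below, they are the kinase mutant stn7-1 (3 arrays) and the double mutant psad1-1 stn7-1 (3), both set against Col-0, and psae1-3 (2) set against its own wild type Wassilewskija (2). The double mutant psae1-3 stn7-1 (A and B) entered only the steps shared by all 17 arrays and is not described. All samples were leaves of the same age.

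Photosystem I takes electrons from plastocyanin and passes them to ferredoxin on the stromal side of the thylakoid membrane. PSAD is a stromal subunit at which ferredoxin docks, and Arabidopsis encodes it in 2 genes, PSAD1 and PSAD2, so that psad1-1 plants, mutated in PSAD1, still carry PSAD2. Loss of PSAD1 is known to lower the amount of photosystem I and to slow electron flow out of it. STN7 is a thylakoid kinase that acts when the electron carriers upstream of photosystem I become reduced, and PSAE is a neighbouring stromal subunit. No probe set with a single gene name was assigned to PSAD1, PSAD2 or STN7, so the mutation itself was not checked on these arrays.

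The signals were brought to a 2% trimmed mean of 100 per array, after which a background of 8.15 was read from control probe sets without a target. Between 72.8% and 76.9% of probe sets lay above it in psad1-1 arrays and between 76.2% and 80.1% in Col-0 arrays. Log2 signals of the 2 psad1-1 arrays correlated at r = 0.976 across probe sets and those of Col-0 pairs at 0.962 to 0.979, against 0.859 to 0.894 between the genotypes. Genes for leaf mesophyll proteins were among the brightest in both. RCA, the activase of Rubisco, read 4482 and 3559 in psad1-1 and 4619, 4585 and 4270 in Col-0. Of the 3 root markers, EXPA7 and EXPA18 stayed at or below 16.7 in psad1-1 and 18.8 in Col-0, whereas SCN1 read 218 and 199 in psad1-1 and 268, 265 and 288 in Col-0. The control probe set for 25S ribosomal RNA read 1468 and 2128 in psad1-1 and 1198, 522 and 1077 in Col-0, so its groups did not overlap. The same control read 1376 to 1651 in stn7-1 and 1328 to 1779 in psad1-1 stn7-1, also above all Col-0 arrays. Its part in the differences below was not tested.

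Of 13648 probe sets bright enough to be tested, of which 40.5% were called, 7354 carried 1 gene name. Among these 2872, or 39.1%, passed a Benjamini-Hochberg adjusted p of 0.05 in limma's moderated test, 1343 (18.3%) higher and 1529 (20.8%) lower in psad1-1 than in Col-0. At least 2-fold changes numbered 322 higher (4.38%) and 564 lower (7.67%), but 455 higher and 446 lower with arrays scaled to their medians, and at least 8-fold changes numbered 7 higher (0.0952%) and 35 lower (0.476%). Fitted log2 changes lay between -6.38 and 4.48, both ends being genes below background in 1 genotype, with a median of -0.03, and the middle 90% lay between -1.26 and 0.95. The balance of the directions depended on the scaling: 46.8% of the calls were higher as scaled here, and 63.0% when arrays were scaled to their medians, which moved every change up by 0.14 at the median. Small changes near that size are given here with that in view, and counts within gene lists stand beside the 39.1% called, 18.3% higher and 20.8% lower, over all probe sets with 1 gene. In leaf material of this kind, fewer cells of a type and less RNA per cell cannot be told apart.

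**Figure D1:**
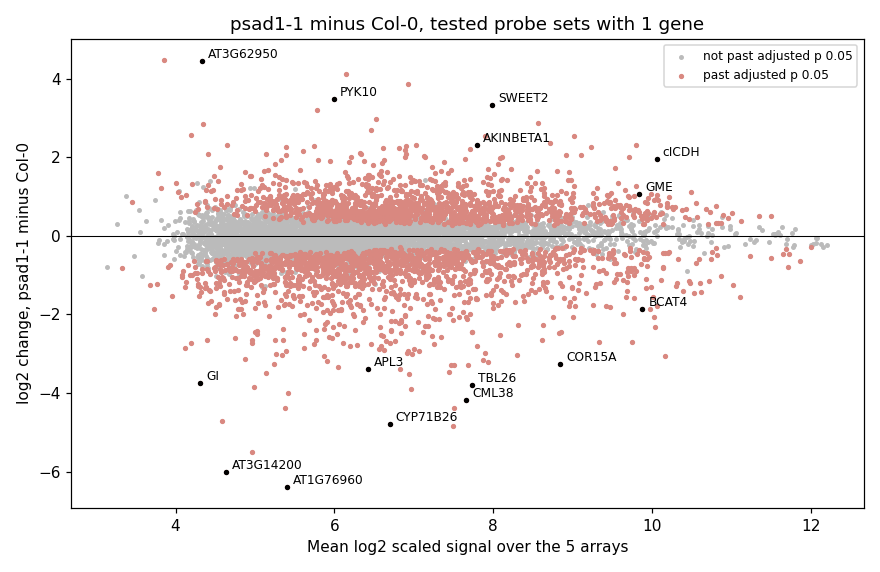
Log2 change of psad1-1 minus Col-0 (vertical axis) against the mean log2 scaled signal over the 5 arrays (horizontal axis) for 7354 probe sets with 1 gene, coloured where the adjusted p was under 0.05. Calls lie on both sides at all signal levels, and the farthest points below zero reach -6.38 and those above it 4.48.

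The calls were spread over the genome. The share called ran from 36.9% of 1057 tested probe sets on chromosome 2 to 41.8% of 1903 on chromosome 1. Among the genes next to PSAD1, of the 5 nearest tested genes on each side, AT4G02610 and AT4G02620 were lower and AT4G02880 higher, all by less than 0.74 on the log2 scale, and the other 7 did not pass. Both lower calls were lost when arrays were scaled to their medians (adjusted p = 0.18 for AT4G02610 and 0.15 for AT4G02620) and without psad1-1 A (adjusted p = 0.23 and 0.064), and AT4G02880 lost its call without psad1-1 B (adjusted p = 0.16).

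The highest change in the list of sugar transport genes was that of SWEET2, a sugar transporter of the vacuolar membrane. It read 949 and 1094 in psad1-1 and 101, 95.9 and 104 in Col-0. The mutant arrays were about 10.2-fold higher than the wild-type arrays, which were nearly equal (log2 change 3.35, SE 0.13, adjusted p = 5.1e-11). AKINBETA1, a regulatory subunit of the energy-sensing kinase SnRK1, read 523 and 649 in psad1-1 and 107, 127 and 120 in Col-0 (log2 change 2.31, SE 0.17, adjusted p = 7.4e-08). cICDH, the NADP-dependent isocitrate dehydrogenase of the cytosol, read 2389 and 2399 in psad1-1 and 739, 514 and 628 in Col-0 (log2 change 1.95, SE 0.15, adjusted p = 1.1e-07). For all 3 genes every mutant array lay far above every wild-type array.

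Among the 14 strongest rises were also genes known here by locus only. AT5G26200 read 83.7 and 104 in psad1-1, whereas its 3 Col-0 signals of 4.92, 7.11 and 2.09 were under background, which makes it at least 11.4-fold higher (adjusted p = 4.2e-07). AT3G62950 read 138 and 120 in psad1-1 and 9.90, 1.36 and 13.0 in Col-0, at least 12.7-fold higher (adjusted p = 0.00013). AT2G05540 read 787 and 474 in psad1-1 and 44.2, 32.7 and 50.3 in Col-0, with a log2 change of 3.87. The 14 leading rises went down to a log2 change of 2.55, that of AT5G19120, and each passed with any 1 of the 5 arrays left out.

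The strongest falls were steeper. AT1G76960 was under background in psad1-1, with 1.74 and 5.07, and read 227, 279 and 241 in Col-0, at least 30.4-fold lower in the mutant (adjusted p = 6.7e-08). With any Col-0 array left out it fell below the signal filter and was not tested. AT3G14200 read 2.66 and 1.32 in psad1-1 and 80.2, 218 and 131 in Col-0, at least 16.2-fold lower (adjusted p = 4.1e-08). CYP71B26, a cytochrome P450 of the family that oxidises small molecules, read 14.3 and 14 in psad1-1 and 418, 375 and 383 in Col-0. This was a 27.7-fold fall with little spread in either group (log2 change -4.79, SE 0.15, adjusted p = 5.2e-12). TBL26, of a family whose members acetylate cell wall polysaccharides, read 42.3 and 45.4 in psad1-1 and 717, 546 and 572 in Col-0 (log2 change -3.79, SE 0.27, adjusted p = 4.3e-08).

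GI, a clock protein that also sets flowering time, had dropped out of the detectable range in psad1-1. Its signals of 2.22 and 7.94 in the mutant were under background, against 55.9, 60.1 and 52.4 in Col-0, at least 6.87-fold lower (adjusted p = 8.2e-06). CCL, named for its likeness to a clock- and cold-regulated gene, read 168 and 166 in psad1-1 and 811, 1042 and 888 in Col-0 (log2 change -2.44, SE 0.16, adjusted p = 1.4e-08). HYH, a bZIP factor close to the light-signalling regulator HY5, moved the other way, with 284 and 260 in psad1-1 and 94.4, 95.1 and 114 in Col-0 (log2 change 1.43, SE 0.20, adjusted p = 4.2e-05). Other clock genes were not analysed here.

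**Figure D2:**
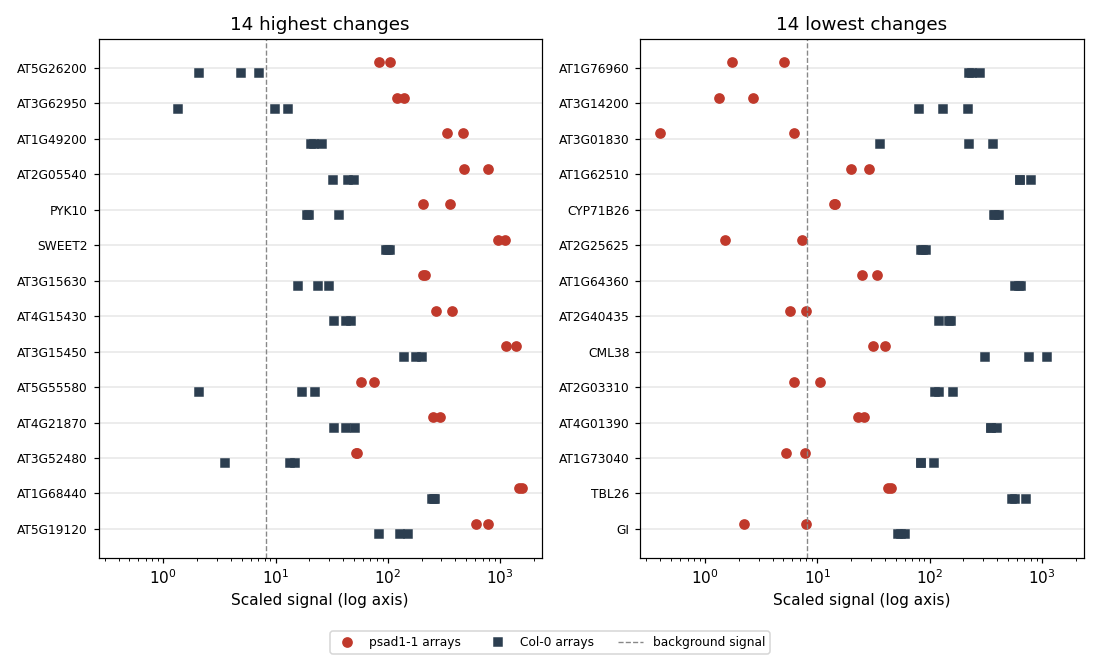
Scaled signals on a log axis for the 14 highest (left) and 14 lowest (right) changes, with each psad1-1 array as a circle and each Col-0 array as a square. The genes were picked among calls without overlap of the arrays, so in every row the circles lie apart from the squares. The dashed line is the background of 8.15. Both mutant signals of AT1G76960, AT3G14200, AT3G01830, AT2G25625, AT2G40435, AT1G73040 and GI lie to its left.

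Genes of sugar transport split in direction. Of 10 tested, 3 were higher, 4 were lower and 3 did not pass, with a median log2 change of -0.35 against -0.03 for all tested probe sets with 1 gene. Beside SWEET2, the rises were TMT1, a sugar carrier of the vacuolar membrane, with 166 and 160 in psad1-1 and 96.8, 82.5 and 92.4 in Col-0 (log2 change 0.85, adjusted p = 0.00047), and SWEET11, a sucrose exporter of the phloem, with a log2 change of 0.64 (adjusted p = 0.0052). SWEET11 lost its call without psad1-1 B (adjusted p = 0.05037), and it was the only marker of vascular tissue tested. The 4 markers of guard cells and epidermis summed to 109 to 140 in psad1-1 and 143 to 151 in Col-0 but went different ways. TRY, of trichome patterning, read 47.1 and 67.4 in psad1-1 and 88.7 to 97.7 in Col-0, FMA, of late guard cell development, read 52.5 and 61.3 in psad1-1 and 42.8 to 50.7 in Col-0, SPCH was near background and MUTE below it in all 5 arrays. The part of such cells in the results was not tested. SWEET13, a sucrose exporter, fell: it read 20.0 and 14.5 in psad1-1 and 133, 112 and 104 in Col-0 (log2 change -2.76, SE 0.33, adjusted p = 6.8e-06). TMT2, the other carrier of the TMT pair tested, fell by 0.74 and SWEET1 by 0.81 on the log2 scale (adjusted p = 0.00025 and 0.0015). SFP1, a further sugar transporter outside the list, was 2.70-fold higher (adjusted p = 9.9e-06).

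Of 6 tested genes of starch metabolism, 5 were lower and 1 was higher, with a median log2 change of -1.03. APL3, a large subunit of the enzyme that makes ADP-glucose for starch synthesis, read 16.8 and 26.2 in psad1-1 and 237, 228 and 198 in Col-0 (log2 change -3.39, SE 0.24, adjusted p = 3.5e-08). QQS, whose loss is known to raise leaf starch, read 43.3 and 51.2 in psad1-1 and 236, 167 and 226 in Col-0 (log2 change -2.14, SE 0.33, adjusted p = 9.2e-05). SBE2.2, a starch branching enzyme, fell by 0.80 and DPE1, which rearranges malto-oligosaccharides from starch breakdown, by 0.50 on the log2 scale, the last losing its call without psad1-1 A (adjusted p = 0.17). The annotation gives the symbol PWD, for an enzyme that phosphorylates starch, to a pair of loci that moved in opposite directions, AT4G24450 by -1.26 and AT5G26570 by 0.86. F2KP, which makes and breaks down the regulator fructose 2,6-bisphosphate, was higher at 849 and 896 in psad1-1 against 378, 358 and 355 in Col-0 (log2 change 1.26, SE 0.12, adjusted p = 7.8e-07).

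All 5 tested genes of the list for cold, drought and abscisic acid were lower, with a median log2 change of -1.56. COR15A, a cold-induced protein that protects chloroplast membranes, read 127 and 109 in psad1-1 and 1205, 950 and 1276 in Col-0 (log2 change -3.27, SE 0.30, adjusted p = 4.4e-07). Its close copy COR15B fell by 1.91 on the log2 scale (adjusted p = 0.0012). The dehydrins COR47 and LTI30 fell by 1.3 and 0.94 (adjusted p = 0.00018 and 0.042), and the zinc-finger regulator STZ by 1.56 (adjusted p = 0.011). The calls on LTI30 and STZ were lost with 1 array left out (adjusted p = 0.31 without psad1-1 B and 0.079 without psad1-1 A). Outside that list, TIL, a lipocalin induced by temperature, fell by 1.12 on the log2 scale, whereas CHL, the chloroplast lipocalin, was 2.68-fold higher.

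Photosynthesis genes with a usable probe set were few, and their changes were small. Of the photosystem I genes with a usable probe set, PSAN read 3125 and 2616 in psad1-1 and 3590, 3773 and 3524 in Col-0 (log2 change -0.34, adjusted p = 0.0051), and PSAE-1 did not pass (log2 change -0.24, adjusted p = 0.57). Of 3 tested photosystem II genes 1 was lower, PSBW, by 0.45, and of 3 antenna genes 1 was lower, LHCB4.2, by 0.28 on the log2 scale. Scaling to array medians ended the calls on PSAN, LHCB4.2 and, narrowly, PSBW (adjusted p = 0.13, 0.28 and 0.0501), and leaving out psad1-1 B ended all 3 (adjusted p = 0.096, 0.2 and 0.22 in the order PSAN, PSBW and LHCB4.2). PGRL1B, a component of cyclic electron flow around photosystem I, read 139 and 142 in psad1-1 and 246, 271 and 201 in Col-0, and kept its call without any 1 array (log2 change -0.76, SE 0.18, adjusted p = 0.0026). The 3 tested Calvin cycle genes did not pass: RCA had a log2 change of -0.17, SBPASE of 0.05 and PRK of 0.06 (adjusted p = 0.19, 0.71 and 0.64).

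Tetrapyrrole synthesis, the pathway to chlorophyll and haem, was raised by contrast: 6 of 8 tested genes were higher and 1 lower, with a median log2 change of 0.66. HEMB1, an early enzyme of the pathway, read 721 and 759 in psad1-1 and 486, 396 and 458 in Col-0 (log2 change 0.73, SE 0.11, adjusted p = 4.6e-05). CHLI2 of the magnesium chelatase rose by 0.77, GSA1 by 0.76 and CHLM, which methylates magnesium protoporphyrin, by 0.62 on the log2 scale (adjusted p = 0.0011, 0.0014 and 0.00025). The lower gene was PORB, which reduces protochlorophyllide in the light, with 377 and 387 in psad1-1 and 697, 480 and 627 in Col-0 (log2 change -0.64, adjusted p = 0.0084). The count of higher members was 4 of 8 with psad1-1 A left out and 5 or 6 of 8 with any other array left out.

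Few plastid-encoded genes were called. Of 67 tested, 2 were higher and the other 65 did not pass, or 2.99% called, with a median log2 change of 0.12. The arrays of 1 genotype differed more than the genotypes did: the median signal of the 67 was 379 and 808 in psad1-1 A and B, and 886, 298 and 569 in Col-0 A, B and C. rbcL, the large subunit of Rubisco, read 190 and 562 in psad1-1 and 247, 81.0 and 172 in Col-0, so the groups overlapped. Its call (log2 change 1.11, SE 0.43, adjusted p = 0.047) was lost without psad1-1 B (adjusted p = 0.64), and that of rps18, a plastid ribosomal protein, likewise (adjusted p = 0.082). With 1 array left out, up to 5 of the 67 were higher, and 8 were when arrays were scaled to their medians. This list was added after the values were seen.

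**Figure D3:**
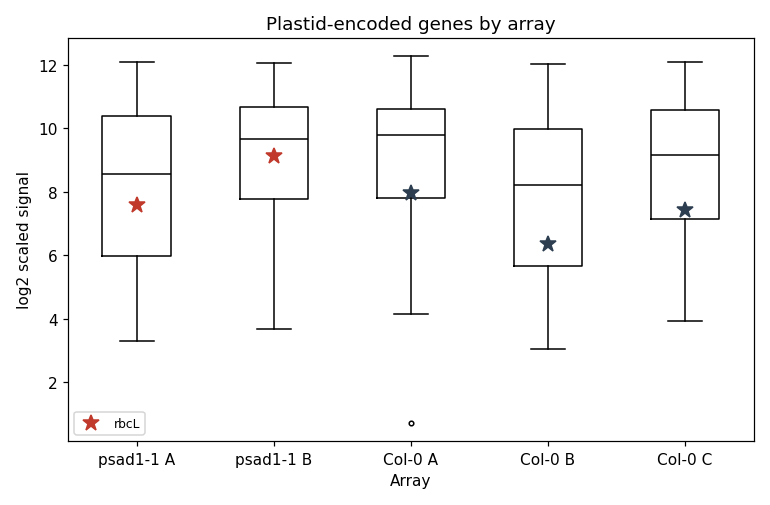
Log2 scaled signals of the 67 tested plastid-encoded genes in the 2 psad1-1 arrays and the 3 Col-0 arrays, as boxes of the quartiles with the median as a line, whiskers to the last value within 1.5 box lengths, and rbcL as a star. The medians of psad1-1 A and Col-0 B are low and those of psad1-1 B and Col-0 A high, so the genotypes overlap.

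Genes of redox control in the chloroplast and cytosol were called in both directions. Of 14 tested genes for antioxidants and thiol redox, 7 were higher and 5 lower, with a median log2 change of 0.30; 85.7% were called, against 39.1% of all probe sets with 1 gene. The higher count was 3 with psad1-1 B left out and 4 with Col-0 C left out. The widest fitted log2 changes of the list were those of AT3G62950, at 4.45 with a Col-0 signal under background, and of GRX480, at -2.37. GRX480 is counted again below among the genes of salicylic acid and pathogen response. NTRC, the thioredoxin reductase that feeds NADPH to plastid thiols, read 662 and 981 in psad1-1 and 388, 335 and 416 in Col-0 (log2 change 1.09, SE 0.16, adjusted p = 6.7e-05). CCS, the copper chaperone of superoxide dismutase, was 1.87-fold higher, and the chloroplast ascorbate peroxidases SAPX and TAPX rose by 0.53 and 0.46 on the log2 scale. GME, which makes a precursor of ascorbate, read 1490 and 1365 in psad1-1 and 696, 715 and 634 in Col-0 (log2 change 1.07, SE 0.10, adjusted p = 9.4e-07). On the lower side stood the glutaredoxin GRXC2 (log2 change -1.10), VTC4 of ascorbate synthesis (log2 change -0.96), and sulfiredoxin SRX, which repairs over-oxidised peroxiredoxins and read 258 and 212 in psad1-1 against 509, 561 and 612 in Col-0. Of 3 tested B-type methionine sulfoxide reductases, which repair oxidised methionine, MSRB5 and MSRB6 fell by 2.58 and 1.07 on the log2 scale (adjusted p = 5.5e-07 and 0.00053), and MSRB3 did not pass. That family was listed after the values were seen.

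Among genes of defence compounds and detoxification, more were lower than higher. Of 5 tested glucosinolate genes 4 were lower, with a median log2 change of -1.28. BCAT4, which starts the side-chain elongation of methionine, read 487 and 388 in psad1-1 and 1397, 1887 and 1481 in Col-0 (log2 change -1.86, SE 0.18, adjusted p = 9.4e-07). UGT74B1, which glucosylates the core structure, fell by 1.41, GSTU20 by 1.28 and the transporter GTR1 by 1.03 on the log2 scale. Of 7 tested glutathione S-transferases 5 were lower (median -0.72), but 3 were without psad1-1 B, without Col-0 C or with array medians. GSTU20 is counted in this list as well as among the glucosinolate genes. Of 23 UDP-glycosyltransferases 13 were lower and 2 higher (median -0.68), the higher count being 1 without psad1-1 A or Col-0 A and 4 with array medians. UGT84A3 fell by 2.25 on the log2 scale, whereas UGT76C2, which inactivates the hormone cytokinin by glucosylation, read 191 and 175 in psad1-1 and 58.0, 42.5 and 47.4 in Col-0 (log2 change 1.91, SE 0.24, adjusted p = 1.5e-05). ARR15, a feedback regulator of cytokinin signalling, was also higher, at 193 and 152 in psad1-1 against 39.9, 42.7 and 43.9 in Col-0 (log2 change 2.02, SE 0.27, adjusted p = 2.6e-05).

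Of 5 tested flavonoid and anthocyanin genes 3 were lower, with a median log2 change of -2.21. DFR, the enzyme at the entry to anthocyanins, read 44.9 and 45.1 in psad1-1 and 160, 296 and 188 in Col-0, but the fit's SE of 0.75 around a log2 change of -2.21 left its call unstable (adjusted p = 0.027, and 0.11 without psad1-1 B). UF3GT, which adds xylose to anthocyanins, was firmer, at 30.6 and 17.7 in psad1-1 against 97.5, 186 and 124 in Col-0 (log2 change -2.50, SE 0.46, adjusted p = 0.00047).

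Of 5 tested genes in a list of the endoplasmic reticulum body, a store of beta-glucosidase in Arabidopsis cells, and of jacalin-related lectins, 3 were higher and 2 lower, with a median log2 change of 1.03. The list also holds the protease BETA-VPE, which is 1 of the 2 lower members. Without psad1-1 A or without Col-0 B, 1 was higher. PYK10, that beta-glucosidase, read 359 and 208 in psad1-1 and 19.8, 19.2 and 37.1 in Col-0 (log2 change 3.50, SE 0.54, adjusted p = 9.8e-05). NAI2, needed to form the bodies, read 78.8 and 55.0 in psad1-1 and 26.8, 15.9 and 40.3 in Col-0 (log2 change 1.35, adjusted p = 0.011, and 0.11 without psad1-1 A). Jacalin-related lectins went both ways, JAL34 by 1.03 (adjusted p = 0.019, and 0.16 without psad1-1 A) and JAL23 by -1.84 (adjusted p = 8.2e-05). The tested vacuolar processing enzymes, proteases that mature vacuolar proteins and a group added after the values were seen, were lower. BETA-VPE, already counted in that list, read 18.6 and 14.3 in psad1-1 and 134, 150 and 126 in Col-0 (log2 change -3.07, SE 0.29, adjusted p = 6.3e-07), and GAMMA-VPE read 397 and 550 in psad1-1 and 1739, 1950 and 1415 in Col-0 (log2 change -1.85, SE 0.21, adjusted p = 4.0e-06).

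Of 13 tested genes of vacuolar protein sorting 6 were lower and 1 higher, or 53.8% called against 39.1% of all probe sets with 1 gene, with a median log2 change of -0.42. The lower ones were all subunits of ESCRT-III, the complex that pinches vesicles into endosomes: VPS2.1 read 109 and 131 in psad1-1 and 355, 514 and 419 in Col-0 (log2 change -1.83, SE 0.16, adjusted p = 4.2e-07), and SNF7.1, VPS60.1, VPS46.2, VPS24.1 and SNF7.2 fell by 0.80 to 1.09 on the log2 scale. VPS9B, the higher one, rose by 1.22. Of 9 tested autophagy genes 5 were lower and 4 did not pass (median -0.38), led by ATG8G and ATG8H at -1.06 and -1, and 3 were lower without psad1-1 B or with array medians. These lists were added after the values were seen.

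Cell wall families were mixed. Of 15 tested probe sets of the TRICHOME BIREFRINGENCE-LIKE family, listed after the values were seen, 4 were higher and 4 lower (median 0.25). TBL37 read 291 and 278 in psad1-1 and 55.0, 81.4 and 67.4 in Col-0 (log2 change 2.08, SE 0.19, adjusted p = 4.1e-07), the opposite of TBL26. Of 9 tested expansins 4 were lower and 1 higher, or 55.6% called, with EXPB1 at a log2 change of -1.67 (adjusted p = 3.7e-05). Without psad1-1 B, 2 expansins were lower, and the higher one lost its call without psad1-1 A, psad1-1 B or Col-0 C. Of 10 other wall enzymes and structural proteins 6 were lower and 2 higher, led by XTH32, of an enzyme family that acts on xyloglucan. It read 203 and 207 in psad1-1 and 564, 546 and 537 in Col-0 (log2 change -1.42, SE 0.19). Both higher members lost their calls without psad1-1 B, and 1 did without Col-0 A or Col-0 C. Outside those lists SKU5, a wall protein of directional growth, and EXGT-A3, an enzyme of the same family as XTH32, were 2.56-fold and 2.43-fold higher.

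**Figure D4:**
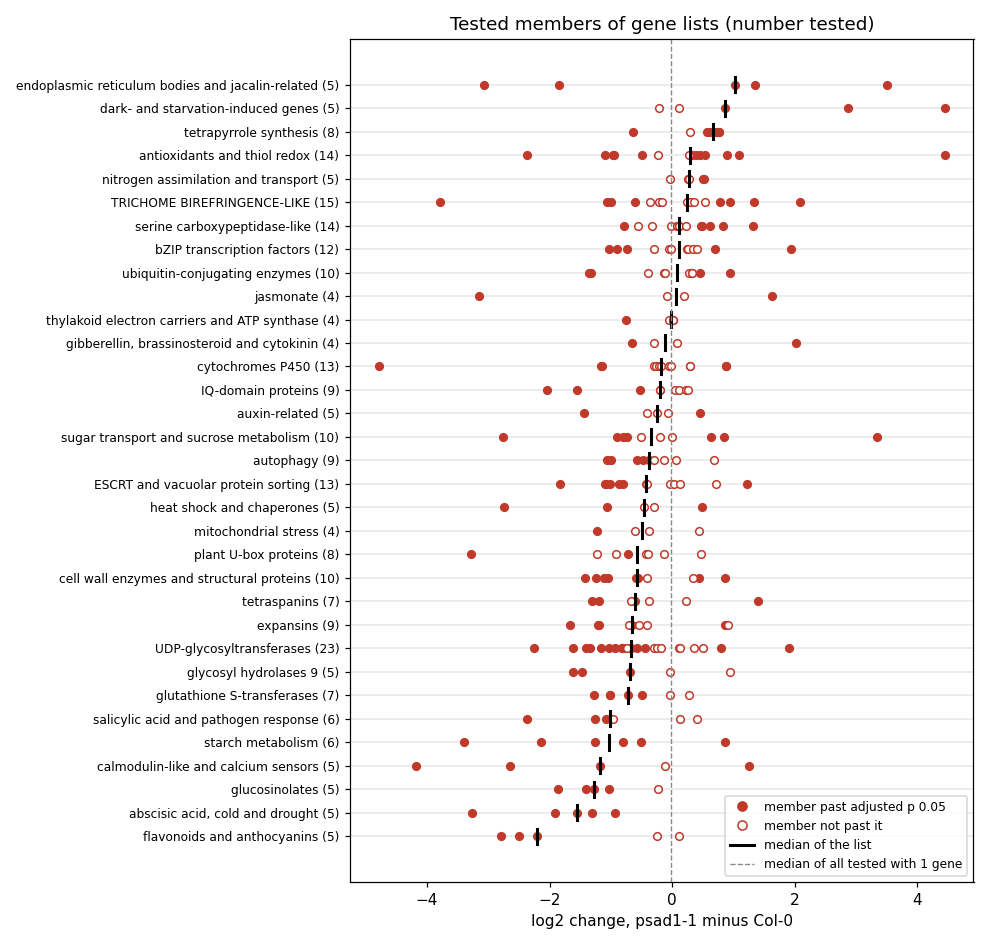
Log2 change of psad1-1 minus Col-0 for each tested member of the gene lists with at least 4 tested members, filled where the adjusted p was under 0.05, with the list median as a black line and the median of all 7354 tested probe sets with 1 gene (-0.03) as a dashed line. Flavonoid, cold and drought, glucosinolate and starch genes lie mostly to the left, tetrapyrrole genes mostly to the right, and antioxidant and sugar transport genes on both sides.

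A further group of lowered genes varied among the Col-0 arrays themselves. Of 5 tested calcium sensors 3 were lower and 1 higher (median -1.18), the higher one losing its call without psad1-1 A, and of 6 genes of salicylic acid and pathogen response 3 were lower (median -1.02). CML38, a calmodulin-like calcium sensor, read 31.1 and 40.2 in psad1-1 and 309, 1115 and 772 in Col-0 (log2 change -4.18, SE 0.50, adjusted p = 7.4e-06). OPCL1, which activates a jasmonate precursor, read 69.9 and 56.8 in psad1-1 and 337, 885 and 590 in Col-0 (log2 change -3.15, SE 0.32, adjusted p = 1.5e-06). PUB19, a U-box ubiquitin ligase, read 52.4 and 39.6 in psad1-1 and 219, 965 and 406 in Col-0 (log2 change -3.27, SE 0.48, adjusted p = 5.7e-05). In each of these genes Col-0 A was lowest, Col-0 B highest and every psad1-1 array below all of them. ORA47, an ethylene-response-type factor, and GRX480, a glutaredoxin of the salicylic acid response, had the same order within Col-0 and fell by 2.64 and 2.37 on the log2 scale (adjusted p = 0.00091 and 0.0058).

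The same held more widely. Of the 564 probe sets at least 2-fold lower in psad1-1, 97 (17.2%) spanned 2-fold or more within Col-0, against 22 of the 322 higher ones (6.83%) and 295 of all 7354 (4.01%). Col-0 A was the lowest of the 3 in 92 of these 97 and Col-0 B the highest in 91. Within psad1-1, 14 of the 564 spanned 2-fold or more. Signals under background were set to it for these spans. A span over 2 psad1-1 arrays also tends to be smaller than 1 over 3 Col-0 arrays, so the genotypes cannot be compared by these counts. With Col-0 B left out 515 of the tested probe sets with 1 gene were at least 2-fold lower, and with Col-0 A left out 593. The calls on CML38, OPCL1, PUB19, ORA47 and GRX480 were kept with any 1 array left out, the highest adjusted p being 0.046, for GRX480 without psad1-1 B. WRKY53, a regulator of senescence, and the calcium sensor CML23 were also variable and lost their calls (adjusted p = 0.2 without psad1-1 A and 0.27 without psad1-1 B).

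The direct contrast with stn7-1 asked whether the change went beyond that of a thylakoid mutant with intact PSAD1. That contrast called 26.6% of all tested probe sets, and 25% of those with 1 gene. Of the 7354, 919 were higher (12.5%) and 919 lower (12.5%) in psad1-1 than in stn7-1. Of the 322 that were at least 2-fold higher than Col-0, 249 were also higher than stn7-1, and of the 564 lower ones 369 were also lower. Since these were chosen with the same psad1-1 arrays, that count is a description. CYP71B26 had a log2 change of -4.79 in psad1-1 and -0.23 in stn7-1 against the shared Col-0 arrays, and the contrast between the mutants was -4.56 (adjusted p = 9.5e-12). GI, under background in both psad1-1 arrays, read 76.9, 72.9 and 63.6 in stn7-1, so the size of that contrast is not given (adjusted p = 6.3e-06). COR15A stood at -3.27 in psad1-1 and 0.16 in stn7-1 (contrast -3.43, adjusted p = 4.9e-07). The contrast did not pass for the 3 lower flavonoid genes (adjusted p between 0.61 and 0.91) or the 6 higher tetrapyrrole genes (adjusted p between 0.13 and 0.9). UF3GT stood at -2.50 in psad1-1 and -2.59 in stn7-1, and HEMB1 at 0.73 in psad1-1 and 0.76 in stn7-1. The flavonoid glycosyltransferases UGT78D1 and UGT78D2, not called against Col-0, did differ between the mutants, at -0.25 and 0.11 in psad1-1 and -0.79 and -0.62 in stn7-1 (adjusted p = 0.025 and 0.0037). PORB differed in sign, at -0.64 in psad1-1 and 0.81 in stn7-1 (contrast -1.45, adjusted p = 1.5e-05).

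The psae1-3 mutant carries a defect in another stromal subunit of photosystem I, PSAE-1, whose log2 change there was -7.02. Its effect was measured against Wassilewskija, with no array shared. Its arrays were deposited on a different scale, with a trimmed mean of 500 in place of 100. The 25S control read 17.6 and 18.1 in psae1-3 and 15.1 and 18.1 in Wassilewskija. The ecotype and the array set thus cannot be told apart. The difference of the effects passed for 19.4% of all tested probe sets and for 1372 of the 7354 with 1 gene (18.7%), 731 with a more positive (9.94%) and 641 with a more negative change (8.72%) in psad1-1. Of the 322 rises of at least 2-fold in psad1-1, 47 were also called higher and 11 called lower in psae1-3, and of the 564 falls 87 were also called lower and 10 called higher. The share of all 7354 called in psae1-3 against Wassilewskija is not given here, so these counts are only a description. The median log2 change of those 322 was 1.28 in psad1-1 and 0.16 in psae1-3, and that of the 564 was -1.45 in psad1-1 and -0.33 in psae1-3. The probe sets were picked on psad1-1 values, which by itself makes these medians larger there.

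SWEET2 stood at 3.35 in psad1-1 and 0.65 in psae1-3 (difference 2.69, SE 0.19, adjusted p = 2.1e-07). CYP71B26 stood at -4.79 in psad1-1 and -0.56 in psae1-3 (difference -4.23, SE 0.22, adjusted p = 8.7e-09). COR15A stood at -3.27 in psad1-1 and 0.42 in psae1-3 (difference -3.69, SE 0.44, adjusted p = 3.5e-05). AT3G62950 was high in both, with 138 and 120 in psad1-1 against 9.90, 1.36 and 13.0 in Col-0, and 58.0 and 28.6 in psae1-3 against signals under background in both Wassilewskija arrays. With wild-type signals under background in each pair, the sizes of these changes were not compared. SRX differed in sign, at -1.26 in psad1-1 and 0.64 in psae1-3 (difference -1.90, SE 0.21, adjusted p = 2.0e-05).

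**Figure D5:**
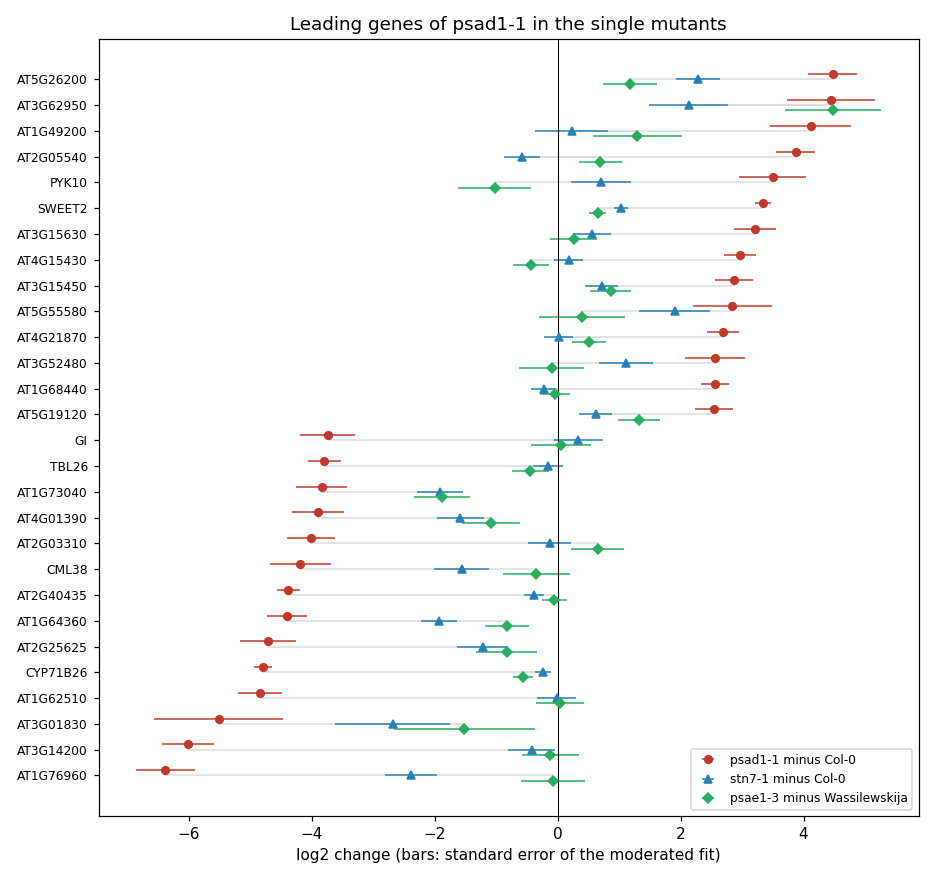
Log2 changes of the 14 highest and 14 lowest genes of psad1-1 (circles) with those of stn7-1 against the same Col-0 arrays (triangles) and of psae1-3 against Wassilewskija (diamonds); bars are standard errors of the moderated fit. The genes were chosen on the circles, which therefore lie outermost in most rows; AT3G62950 is high in psae1-3 as well. Sizes of genes below background in 1 group, such as AT1G76960, AT3G14200 and GI in psad1-1, are not measured.

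The psad1-1 allele was also present in the 3 double mutant arrays. Their values did not enter the changes of psad1-1 against Col-0, but they shared the variance, floor and signal filter of the fit. psad1-1 and psad1-1 stn7-1 differed at 167 of 7354 probe sets (2.27%), 66 higher and 101 lower in psad1-1. Of the 28 leading genes 6 differed between them, among them AT3G14200 (adjusted p = 0.0035) and GI (adjusted p = 0.029). The 28 were chosen with the same psad1-1 arrays, so that count is a description and is not set against the 2.27%. AT3G14200 read 2.66 and 1.32 in psad1-1 and 10.2, 10.7 and 32.6 in psad1-1 stn7-1, and GI read 2.22 and 7.94 in psad1-1 and 8.26, 27.5 and 23.9 in psad1-1 stn7-1. All 4 psad1-1 signals were under background, so these differences have a direction but no measured size. SWEET2 stood at 3.35 in psad1-1 and 3.05 in psad1-1 stn7-1, and APL3 at -3.39 in psad1-1 and -3.32 in psad1-1 stn7-1, neither difference passing (adjusted p = 0.24 and 0.92).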

How the data were processed

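The values are signal intensities on a linear scale that the authors deposited, made with GCOS and MAS5 per the submitters' processing notes; their versions are not stated. After scaling (2% trimmed mean of 100 on each array), signals below the 10th percentile were raised to it (1.57) and turned into log2 values. The 64 control probe sets were removed, and so were those whose mean over the arrays fell in the lowest 40%, which left 13648. limma 3.58.1 (R 4.3.3) estimated a mean for each genotype from the 17 arrays together, with moderated variances that follow a trend (10 residual and 6.04 prior degrees of freedom). Tests were two-sided, with Benjamini-Hochberg adjustment over the 13648. Standard errors (SE) of log2 changes come from the same model.

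The annotation names 1 gene for 13513 of 22810 probe sets and several for 503, which were not named. Of the 13513, 13436 matched a RefSeq locus (TAIR10.1), used for names and order. The background of 8.15 is the 95th percentile of 315 control values. For folds written with "at least", signals under it were set to it.

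Named genes are the 14 highest and 14 lowest calls without overlap of the arrays, up to 4 called members per list with the largest changes, the genes whose psad1-1 and psae1-3 effects differed most among these, and neighbours of PSAD1. Others (such as CCL, TIL, CHL, GME, AKINBETA1, cICDH, SFP1, F2KP, SRX, ORA47, PUB19, SKU5, EXGT-A3 and members beyond the first 4) were picked after their values were seen. Members and lists were chosen with earlier results of these data known, and lists are described by counts and medians without a set test. Lists hold only genes the annotation names.

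The fit was tested on simulated data for psad1-1 minus Col-0 over 13648 probe sets. It found 20 of 50 changed 1.5-fold, 38 of 50 changed 2-fold, 49 of 50 changed 4-fold and 49 of 50 changed 8-fold, and called 10 that had no change. Far fewer probe sets were changed there than the 40.5% called in the data. The simulated noise was independent, without shifts shared across an array, so these counts need not carry over. The alternatives covered scaling, floor, filter, arrays fitted, variance model, the letter of the replicate as a block, and each array left out. The small number of arrays limits the precision.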

Additional observations from a re-analysis of the deposited data

Results flagged for a closer look

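For 8 named genes the fitted psad1-1 and psae1-3 effects lay farthest apart. They were picked on that difference, so the adjusted p of its test (limma, Benjamini-Hochberg) is a description and adds no support. Signals under background entered 5 of the differences, whose sizes and order are therefore not measured. Differences with every group above background were 3.40 on the log2 scale for AT4G15430 (adjusted p = 2.7e-05), 3.17 for AT2G05540 (adjusted p = 0.00028) and -4.89 for AT1G62510 (adjusted p = 1.6e-05).

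The fitted differences of the others are given for completeness. PYK10 had 4.52 (adjusted p = 0.0011), but read 0.654 and 3.75 in psae1-3 and 6.33 and 3.84 in Wassilewskija, all under background, so its change there was not measurable. AT1G76960 had -6.31 (adjusted p = 2.0e-05), with all 4 psae1-3 and Wassilewskija signals at or below 1.67, and its change there was not measurable either. AT3G14200 had -5.89 (adjusted p = 1.5e-05) with both psad1-1 signals under background, against 121 and 96 in psae1-3 and 108 and 127 in Wassilewskija. AT2G03310 had -4.65 (adjusted p = 5.5e-05) with 1 psad1-1 signal under background, and AT5G26200 had 3.30 (adjusted p = 0.0012) with all 3 Col-0 signals under it. The ecotype, the array set and the mutated gene differ together between these effects and cannot be told apart. No group of the comparison had 4 or more arrays, so single arrays were not screened as outliers.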

How the results depend on the processing

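The count of probe sets past the threshold for psad1-1 minus Col-0 was 5521 and lay between 4433 and 5705 under the scaling, floor, filter, array and variance alternatives and between 3878 and 5096 with 1 array left out; among those with 1 gene the same ranges were 2233 to 2955 and 1962 to 2648. Of the 2872 named calls 1524 passed in the same direction in all 5 fits with 1 array left out, and none of the called genes followed below changed sign. The share of higher calls over all tested probe sets was 47.8% as scaled, 63.6% with array medians and 53.3% with quantile normalization. The contrast with stn7-1 gave 3634 calls and 2331 to 3714 with 1 array left out, the lowest without psad1-1 B; the lone mutant array is then assumed to vary like the other groups. The difference of the effects of psad1-1 and psae1-3 gave 2653 calls and 1876 to 2655 with 1 array left out. At least 2-fold calls numbered 322 higher and 564 lower, and 455 and 446 with array medians.

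The letters A to C give no pairing: deviations of same-lettered arrays correlated at r = -0.08 for A and 0.0063 for B. With the letter as a replicate block the counts were 5172 and, with 1 gene, 2685, against stn7-1 3152 and for the difference of effects 2314. Of 228 genes followed, 221 were called, and 179 of these under every alternative that tested them. Sign changes concerned genes next to PSAD1 that did not pass: AT4G02580 (0.077 with array medians, and -0.14 to 0.012 with 1 array left out, positive without Col-0 A), AT4G02630 (0.0079 with array medians), AT4G02860 (0.0197 with array medians) and AT4G02840 (-0.012 with quantile normalization, and -0.18 to 0.19 with 1 array left out, negative without psad1-1 A, Col-0 A or Col-0 B). The cause of these was not tested.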

Other observations

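A few other families are given as values, beside the 39.1% called of all tested probe sets with 1 gene. Of 7 tested tetraspanins, membrane proteins that organise other proteins, 3 were lower and 1 higher in psad1-1 than in Col-0: TET8, TET3 and TET2 fell by 1.31, 1.19 and 0.61 and TET10 rose by 1.40 on the log2 scale (57.1% called). Of 14 tested serine carboxypeptidase-like genes 5 were higher and 1 lower (42.9% called), led by SCPL45 at 100 and 113 in psad1-1 against 52.5, 41.4 and 35.7 in Col-0. Of 9 tested IQ-domain genes, whose products bind calmodulin, 3 were lower and 6 did not pass (33.3% called), led by IQD22 at -2.04 and IQD23 at -1.55. These lists were made after the values were seen.

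A pair of further genes was higher: PRH75, an RNA helicase of the nucleolus, read 497 and 423 in psad1-1 and 164, 170 and 160 in Col-0 (log2 change 1.48, SE 0.16, adjusted p = 2.5e-06 in limma), and DIM1A, which modifies ribosomal RNA, read 130 and 140 in psad1-1 and 54.4, 39 and 49.2 in Col-0 (log2 change 1.52, SE 0.22, adjusted p = 5.2e-05). They were picked after their values were seen. The 25S control was also higher in both psad1-1 arrays than in all Col-0 arrays, and its part in this was not tested. That control was above all Col-0 arrays in stn7-1 (1376 to 1651) and psad1-1 stn7-1 (1328 to 1779) as well.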
